A study of Mus musculus with 9 samples.

Results

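Serpinb1a, Serpinb6a, Serpinb6b, Serpinb9, Serpina3f and Serpina3g are 6 genes of the serpin family, chosen from the 29995 genes of a spleen B cell RNA-seq table that leaves out immunoglobulin (Ig) genes. They were picked because Serpinb1a had one of the largest decreases in plasma cells in these same libraries. For all 6, the plasma cell values are therefore given as a description without a test. All 6 passed the filter on low values, which asked for 1 TPM or more in 3 or more libraries and left 12892 genes. TPM is the length-normalised share of a gene in all transcripts of a library.

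Serpins are protease inhibitors that act as suicide substrates: the target enzyme cleaves an exposed loop, the serpin changes shape and the enzyme stays trapped in the complex. Most serpins are secreted, whereas the clade B members lack a classical signal peptide and remain in the cytosol and nucleus, where they meet proteases that leak from granules and lysosomes. Serpinb1a inhibits the neutrophil proteases elastase, proteinase 3 and cathepsin G, Serpinb6a inhibits cathepsin G, Serpinb6b inhibits mouse granzyme A and Serpinb9 inhibits granzyme B. Serpina3g, also known as Spi2A, belongs to a clade of mostly secreted inhibitors but acts inside lymphocytes against lysosomal cathepsins, and is a target of NF-kappaB. Serpina3f is its close relative.

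The libraries came from spleens of 12-week-old B6.Blimp1+/GFP mice, which carry 1 Blimp1 allele that reports its transcription through green fluorescent protein (GFP). The mice were killed 4 days after they received 50 µg NP-LPS intraperitoneally, a bacterial lipopolysaccharide that carries the hapten nitrophenyl (NP). The 3 sorted groups held 3 libraries each. The paper gates all 3 groups as negative for a dump channel of T cell, macrophage and erythroid markers. Naive B cells were IgD high, B220+ and NP-. The activated NP+ cells were split into NP-specific B cells (IgD-, GFP-, CD138-, B220+) and plasma cells (PCs: IgD-, GFP+, CD138+, B220+ or B220-). All 3 groups thus came from immunized mice of the reporter genotype, the naive cells included, and PCs were gated on the reporter of the factor that drives their differentiation. The labels describe 3 biological replicates (mice) per cell type.

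Library sizes recovered from the deposited log2 values, Ig genes left out, lay between 28490300 and 31719400 estimated counts for naive, 34918400 and 38602300 for NP-specific and 20189900 and 22137400 for PC libraries. The summed level of 7 B cell markers lay between 9242 and 9615 TPM for naive, 6490 and 6986 TPM for NP-specific and 1499 and 1568 TPM for PC libraries, and that of 5 PC markers was 142.2 to 194.4 TPM in the B cells and 4811 to 5939 in PCs. PC replicate 3 stood apart from every other library. Its 17 liver marker genes summed to 7976 TPM with none at 0, compared with 27.8 and 23.4 in the other PC libraries and 3.33 to 7.69 in the B cells, and its 5 monocyte and macrophage markers summed to 56.5 TPM against 2.90 to 18.6 elsewhere. Of that macrophage sum, Lyz2 was 48.2 TPM. Its neutrophil markers summed to 33.2 TPM, against 5.19 and 5.87 in the other PC libraries. Its erythroid markers summed to 36.9 TPM, against 16.9 and 6.21. Changes of the 6 genes and of other named genes that PC replicate 3 moved are given below with and without this library. Low-level signal also differed between groups: 4826 to 5799 genes were listed at 0 in naive libraries, 7819 to 11623 in NP-specific and 7184 to 10017 in PC libraries, although the NP-specific libraries were the largest.

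The 6 genes lie in 2 clusters (GRCm38, GENCODE M21). Chromosome 13 holds 15 Serpinb genes within 1160.7 kb, of which Serpinb1a, Serpinb6b, Serpinb9, Serpinb6a and, outside the 6, Serpinb9c passed the filter. Serpinb1a (ENSMUSG00000044734.16) is at chr13:32842092-32851185 on the minus strand, followed by Serpinb6b (ENSMUSG00000042842.11) at chr13:32965209-32979067 and Serpinb9 (ENSMUSG00000045827.10) at chr13:33003250-33017957, both on the plus strand. Serpinb6a (ENSMUSG00000060147.15) closes the cluster at chr13:33917918-34002794 on the minus strand. Serpina3f (ENSMUSG00000066363.12, chr12:104214544-104221129) and Serpina3g (ENSMUSG00000041481.16, chr12:104236245-104241939) are neighbours on the plus strand of chromosome 12, in a run of 20 Serpina genes of which Serpina1b was the only other to pass the filter.

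Promoter windows of 250 bases before a RefSeq start site (GRCm38.p6) were available for 5 of the 6 genes. The 4 windows below are shown because they held a match to one of 4 motifs searched on both strands, with the matches in capitals. The motifs were a GAS-type motif bound by STAT factors (TTCNNNGAA), an interferon-response-type motif (GAAA, NN and GAAA in a row), a kappaB-type motif (GGG, NN and TTTCC in a row) and a PU.1-type motif (GAGGAAGT). Of the 32851 promoter windows of the same length, 7.02%, 2.98%, 1.41% and 2.44% held them, respectively. Each sequence is written 5′ to 3′ on the strand of its gene, Serpinb6a on the minus and the others on the plus strand.
Serpina3f: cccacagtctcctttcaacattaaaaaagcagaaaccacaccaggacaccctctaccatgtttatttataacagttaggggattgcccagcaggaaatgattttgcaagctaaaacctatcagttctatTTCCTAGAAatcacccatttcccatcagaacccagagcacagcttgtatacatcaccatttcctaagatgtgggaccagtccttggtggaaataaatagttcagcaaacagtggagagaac
Serpina3g: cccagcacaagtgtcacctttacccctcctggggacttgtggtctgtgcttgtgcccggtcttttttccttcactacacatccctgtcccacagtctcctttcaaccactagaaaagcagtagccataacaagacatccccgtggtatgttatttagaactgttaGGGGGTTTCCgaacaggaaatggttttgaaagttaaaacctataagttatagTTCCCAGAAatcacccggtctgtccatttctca
Serpinb9: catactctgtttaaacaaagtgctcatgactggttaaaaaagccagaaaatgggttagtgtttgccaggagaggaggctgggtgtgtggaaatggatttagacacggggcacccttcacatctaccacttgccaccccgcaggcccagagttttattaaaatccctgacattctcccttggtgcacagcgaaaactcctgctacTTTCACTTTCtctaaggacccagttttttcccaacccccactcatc
Serpinb6a: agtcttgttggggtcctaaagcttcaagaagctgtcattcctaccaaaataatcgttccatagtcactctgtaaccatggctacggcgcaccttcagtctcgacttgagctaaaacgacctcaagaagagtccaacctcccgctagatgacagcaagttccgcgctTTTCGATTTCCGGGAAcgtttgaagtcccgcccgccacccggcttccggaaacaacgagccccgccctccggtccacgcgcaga

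The Serpina3f window (chr12:104214294-104214543) held a GAS-type match that began 121 bases before the start site. The Serpina3g window (chr12:104235897-104236146) held a GAS-type match 33 bases before the start and a kappaB-type match 85 bases before it. The neighbours share sequence here: 119 of 144 aligned bases (82.6%, with 3 gaps) were identical between Serpina3f positions -250 to -105 and Serpina3g positions -163 to -17. The Serpinb9 window (chr13:33004291-33004540) held an interferon-response-type match 46 bases before the start. In Serpinb6a (chr13:34002795-34003044), an interferon-response-type match 84 bases and a GAS-type match 77 bases before the start overlapped and are printed as one run of capitals. The letters searched were not in the Serpinb6b window or in a second Serpinb6a window, a second Serpina3f window held the same GAS-type match 210 bases before its start, and the PU.1-type letters were in none of the windows. A match describes the letters of the window and is not evidence of binding.

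Serpinb1a was the most abundant of the 6 in naive B cells and almost undetectable in PCs. Its level was 487.4, 460.9 and 481.8 TPM in naive B cells (476.7 ± 14.0, SD, n = 3), 352.4, 363.6 and 363.3 TPM in NP-specific B cells (359.8 ± 6.39, n = 3) and 0.919, 0.0917 and 0.797 TPM in PCs (0.602 ± 0.446, n = 3). The 3 groups did not overlap. The PC levels rest on 30.1, 3.1 and 25.9 estimated counts, and 3 counts, the upper limit that a count of 0 allows, would be 0.0892 to 0.0923 TPM in these libraries. PC replicate 2 was thus barely above that limit for Serpinb1a, and such limits cover counting error only.

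**Figure D1:**
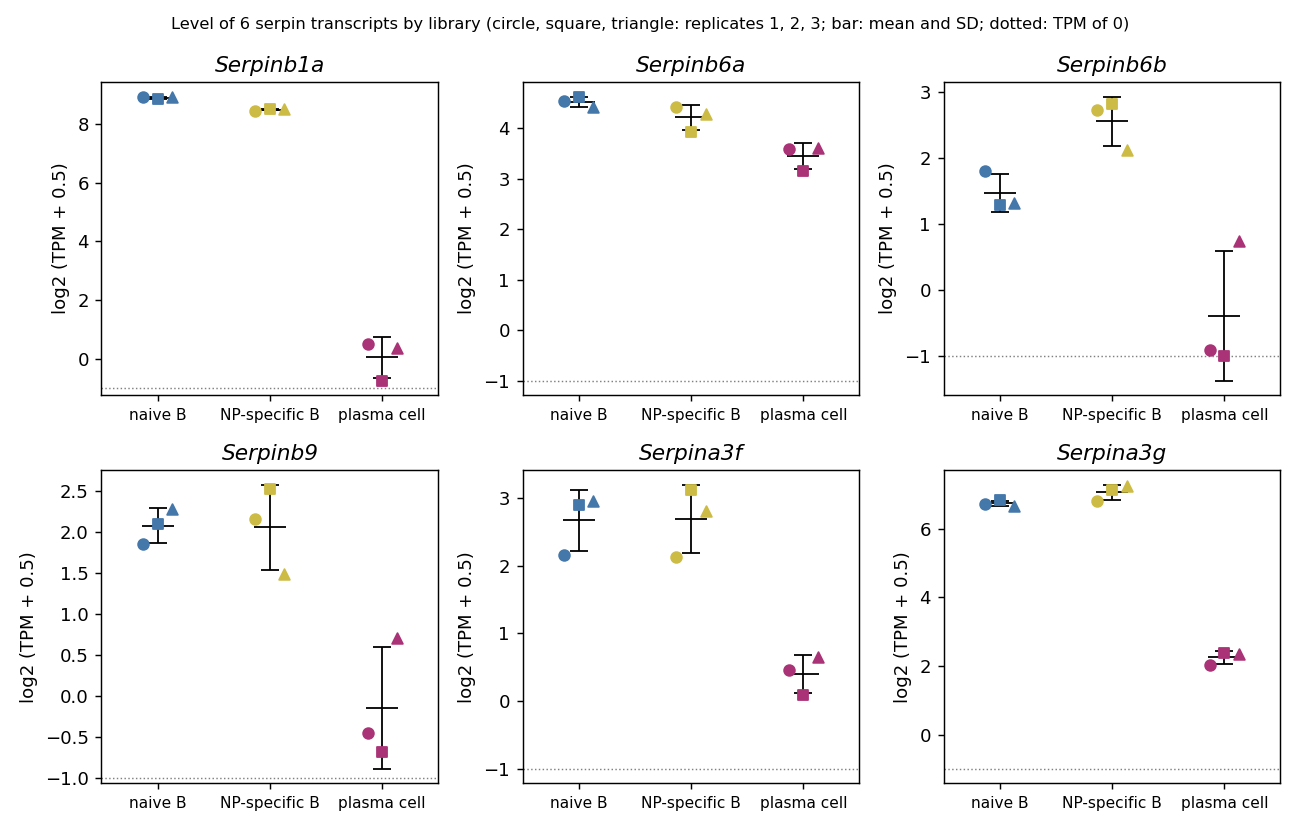
Level of each of the 6 serpin transcripts, as log2 (TPM + 0.5), in the 3 naive B, 3 NP-specific B and 3 plasma cell libraries (circle, square and triangle for replicates 1, 2 and 3). Black bars are the group mean and SD of the plotted values and the dotted line marks a TPM of 0. All PC libraries lie below all B cell libraries for each gene, and the Serpinb6b and Serpinb9 triangles of PC replicate 3 lie above the other PC libraries.

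Serpina3g came second in both B cell groups. It measured 106.1, 113.8 and 101.7 TPM in naive B cells (107.2 ± 6.11, n = 3), 112.2, 139.4 and 152.8 TPM in NP-specific B cells (134.8 ± 20.7, n = 3) and 3.55, 4.69 and 4.61 TPM in PCs (4.28 ± 0.638, n = 3). The PC libraries were close to each other and far below the B cells, whereas 1 NP-specific library lay within the naive range. Serpina3f was expressed at a far lower level, with 3.94, 6.95 and 7.26 TPM in naive B cells (6.05 ± 1.83, n = 3), 3.88, 8.20 and 6.52 TPM in NP-specific B cells (6.20 ± 2.18, n = 3) and 0.869, 0.566 and 1.07 TPM in PCs (0.835 ± 0.253, n = 3). Naive and NP-specific libraries overlapped throughout for Serpina3f. Assignment between the neighbours is uncertain, since 15.3% of the 31-base words in Serpina3f transcripts also occur in Serpina3g, and 27.3% of the Serpina3f words and 28.4% of the Serpina3g words occur in some other gene.

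Serpinb6a was the most evenly expressed of the 6. Its levels were 22.6, 24.01 and 20.8 TPM in naive B cells (22.5 ± 1.63, n = 3), 20.9, 14.7 and 19.0 TPM in NP-specific B cells (18.2 ± 3.18, n = 3) and 11.5, 8.34 and 11.6 TPM in PCs (10.5 ± 1.84, n = 3). Naive and NP-specific libraries overlapped, and the PC libraries lay below both. Of its 31-base words, 28.9% occur in other genes, most often in its neighbour Nqo2 (13.1%), so some reads could have been split between them.

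The granzyme inhibitors were expressed at low levels. Serpinb9 measured 3.13, 3.78 and 4.37 TPM in naive B cells (3.76 ± 0.620, n = 3), 3.97, 5.23 and 2.31 TPM in NP-specific B cells (3.84 ± 1.47, n = 3) and 0.235, 0.123 and 1.13 TPM in PCs (0.497 ± 0.553, n = 3). Serpinb6b measured 2.97, 1.93 and 2.00 TPM in naive B cells (2.30 ± 0.583, n = 3), 6.11, 6.52 and 3.86 TPM in NP-specific B cells (5.49 ± 1.43, n = 3) and 0.0336, 0 and 1.18 TPM in PCs (0.403 ± 0.669, n = 3). For both genes the highest PC value was that of replicate 3, the library with liver, macrophage, neutrophil and erythroid marker transcripts. The part of these transcripts in the values was not tested. In the other PC libraries Serpinb6b had 1.1 and 0 estimated counts, below the 3 counts (0.0911 and 0.0889 TPM) that a count of 0 allows, so it was not detectable there at this depth.

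The composition of the 6 differed between groups. Together they made up 626.1, 611.3 and 617.9 TPM in naive B cells, 499.4, 537.6 and 547.8 TPM in NP-specific B cells and 17.1, 13.8 and 20.4 TPM in PCs. Serpinb1a supplied 75.4 to 78.0% of the naive sum, 66.3 to 70.6% of the NP-specific sum and 0.664 to 5.37% of the PC sum. Serpina3g supplied 16.5 to 18.6%, 22.5 to 27.9% and 20.7 to 33.9%, respectively. In PCs the largest share was that of Serpinb6a, at 56.9 to 67.2%, compared with 2.73 to 4.18% in the B cells.

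NP-specific B cells were compared with naive B cells to ask what differed in NP-binding cells negative for the Blimp1 reporter. All groups were sorted on the same day, so the comparison gives no order in time. Changes were fitted with limma on log2 TPM with an offset of 0.5, and a gene was called when its Benjamini-Hochberg adjusted p over all 12892 genes was under 0.05 and its change was over 2-fold. In this comparison 8.13% of all tested genes were called higher and 10.4% lower. Of the 6 serpins, 1 was called higher and 0 lower, and 3 had an unadjusted p under 0.05, as did 51.2% of all genes. Their median log2 change was -0.01, and that of all genes was -0.16.

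Serpinb6b, the granzyme A inhibitor, was the member called. It rose by 1.08 ± 0.34 (log2 change ± SE, limma adjusted p = 0.0256), 2.39-fold in mean TPM, and every NP-specific library was above every naive library. The call is not a firm one: its direction held under all 19 alternative settings but the call under 9 of them, with adjusted p from 0.00793 to 0.504. Leaving out naive replicate 2 (adjusted p = 0.0843) or 3 (0.0849), or NP-specific replicate 1 (0.0616) or 2 (0.0644), each ended it. A block on replicate number ended it too (1.06, limma adjusted p = 0.0523). The 0.504 came with the log2 values of the authors (SE 1.42), in a fit that weighted PC and B cell libraries equally. The call held with only the 6 libraries compared (limma adjusted p = 0.0164) and without PC replicate 3 (0.0103). Neutrophil markers summed to 53.7 TPM in NP-specific replicate 2 and to 1.01 and 1.75 in the other NP-specific libraries. Macrophage markers summed to 18.6 TPM in replicate 2 against 6.39 and 8.85, all above the naive libraries at 2.90 to 4.64 TPM. Of the tested macrophage markers, Mpeg1 was called higher (1.74 ± 0.45 on the log2 scale, limma adjusted p = 0.0109) and Lyz2 was not (0.11). The sort excluded cells positive for a macrophage marker. Of the 5 dendritic cell markers, Flt3 was higher in NP-specific than in naive libraries (means of 17.7 and 2.16 TPM). Zbtb46, Siglech and Xcr1 did not pass the test and Clec9a was not tested, all with NP-specific group means of 2.40 TPM or less. Serpinb6b was 6.52 TPM in NP-specific replicate 2 and 6.11 TPM in replicate 1, and the part of these markers in the call was not tested.

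Serpinb1a was lower in NP-specific than in naive B cells by a small margin. The log2 change was -0.41 ± 0.09 (limma adjusted p = 0.00455), 1.33-fold in mean TPM, with no overlap between the libraries, and as it was under 2-fold it was not called. Groups that do not overlap were common here, 32.4% of all genes being lower and 23.6% higher without overlap. The limma adjusted p of Serpinb1a was 0.715 with the log2 values of the authors, 0.533 with an offset of 0.1 and 0.0951 with an offset of 1. These fits gave equal weight to all libraries and shared their estimate of the spread with PCs, where Serpinb1a was almost undetectable. The SE with the log2 values of the authors was 0.757. With only the 6 libraries compared, the SE was 0.08 and the limma adjusted p 0.00386. The log2 change itself stayed between -0.69 and -0.30 over 20 settings.

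The other members did not pass the test in NP-specific B cells. Serpina3g changed on the log2 scale by 0.31 ± 0.12 (limma adjusted p = 0.0604) and Serpinb6a by -0.32 ± 0.17 (adjusted p = 0.155). Serpinb9 (-0.03 ± 0.32, adjusted p = 0.945) and Serpina3f (0.01 ± 0.30, adjusted p = 0.978) had estimates smaller than their SEs, so that no direction could be read with 3 libraries a group.

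**Figure D2:**
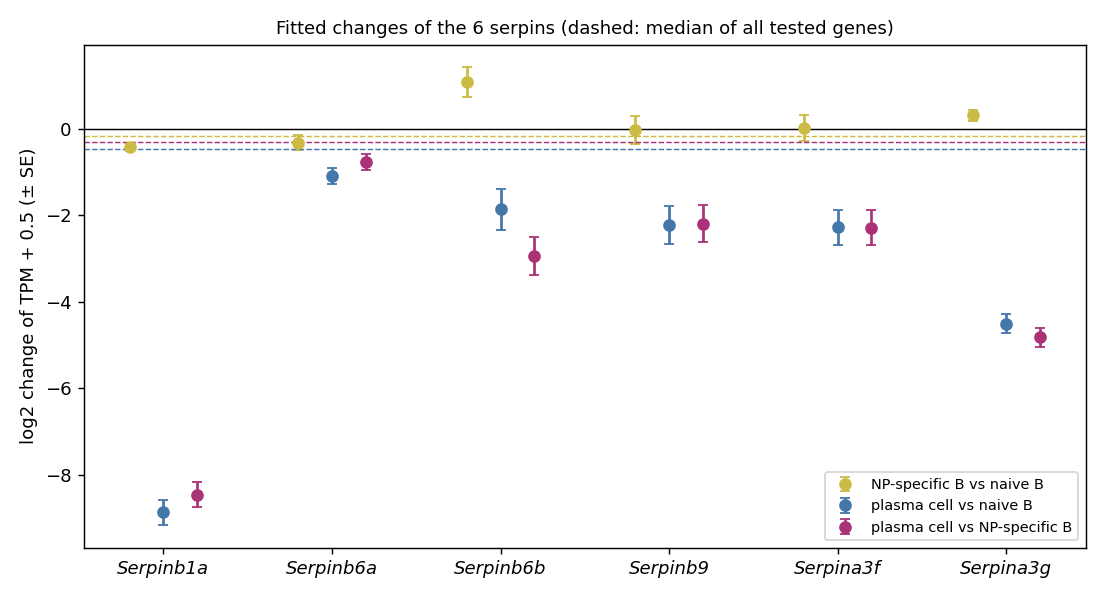
Fitted log2 change of TPM + 0.5 for the 6 serpins in NP-specific against naive B cells (yellow), PCs against naive B cells (blue) and PCs against NP-specific B cells (purple), with bars for the SE. Dashed lines in the same colours give the median over all 12892 genes. All blue and purple points lie below 0 and below those medians, from -0.76 for Serpinb6a to -8.86 for Serpinb1a.

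PCs had lower levels of all 6 transcripts than naive B cells. Changes are given as a description because the genes were picked on this contrast. In these bulk libraries, fewer cells that express a gene and less of its RNA per cell cannot be told apart. Serpinb1a was lower by -8.86 ± 0.29 on the log2 scale, 792-fold in mean TPM, the third largest decrease among the 12892 genes after Ms4a4c (-9.23) and H2-Oa (-8.95). Fcer2a, which encodes the B cell surface receptor CD23, came next at -8.86. Serpina3g was lower by -4.51 ± 0.22, 25.03-fold, in all 3 PC libraries alike. In this fit Serpina3f (-2.28 ± 0.41, 7.25-fold), Serpinb9 (-2.23 ± 0.43, 7.56-fold) and Serpinb6b (-1.86 ± 0.47, 5.71-fold) formed a middle group, and Serpinb6a had the smallest change at -1.08 ± 0.19, 2.15-fold. The grouping depended on the values fitted. Over the alternatives Serpinb6b lay between -4.52 and -1.32 and Serpinb9 between -3.42 and -1.72. With the log2 values of the authors Serpinb6b was -4.48, close to Serpina3g at -4.555, and Serpinb9 was -3.40.

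All 6 were over 2-fold lower and had no overlap between PC and naive libraries, where 27.8% of all genes were over 2-fold lower and 48.7% were lower without overlap. As the genes were picked on this contrast, nothing is read from these counts. The members' median log2 change was -2.25 and that of all genes -0.47. Scaling moved that reference: with median-of-ratios scaling the median of all genes rose by 0.49 and with quantile normalization by 0.40, and Serpinb6a was then -0.59 and -0.53, under 2-fold, as it was without PC replicate 2 (-0.94). In the table that retains Ig genes, Serpinb6a was -2.15 and the median of all genes moved by -0.93. The remaining 5 were over 2-fold lower under every setting that kept them, and Serpinb1a lay between -10.04 and -8.26.

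The library with liver transcripts affected the low-level members most. Without PC replicate 3, the log2 changes from naive B cells were -9.03 for Serpinb1a (944-fold), -2.65 for Serpinb9 (21.0-fold) and -2.42 for Serpinb6b, for which no fold is given because both remaining PC libraries were under 3 counts. Serpina3g (26.0-fold), Serpina3f (8.43-fold) and Serpinb6a (2.27-fold) moved little. For Serpinb1a, PC replicate 3 lay at 0.797 TPM, between the 0.0917 and 0.919 TPM of the other libraries.

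PCs were also compared with NP-specific B cells, the antigen-binding cells at the same day that had not turned on the reporter. The 2 PC comparisons share their PC libraries and so are not independent. Serpinb1a had the largest decrease of all 12892 genes, -8.45 ± 0.29 on the log2 scale or 597-fold in mean TPM, ahead of Ms4a4c (-8.31) and Ltb (-7.84), which encodes lymphotoxin beta. Serpina3g was lower by -4.82 ± 0.22 (31.5-fold), Serpinb6b by -2.94 ± 0.45 (13.6-fold), Serpina3f by -2.29 ± 0.41 (7.43-fold) and Serpinb9 by -2.19 ± 0.43 (7.73-fold). Serpinb6a was lower by -0.76 ± 0.19, 1.74-fold. Hence 5 of 6 were past 2-fold, against 23.4% of all genes that were over 2-fold lower, and all 6 had no overlap, against 40.9% of all genes. In the table that retains Ig genes, Serpinb6a was -1.82, so that 6 of 6 were past 2-fold, and the median of all genes moved by -0.97. The median log2 change was -2.61 for the 6 and -0.30 for all genes. As the genes were picked for a fall in PCs, nothing is read from these counts and medians. Without PC replicate 3, Serpinb9 was 21.4-fold lower and the Serpinb6b log2 change was -3.50. The size of the Serpinb6b change depended on the values fitted, and both PC libraries kept in that setting were under the count limit given above. With all PC libraries it was -5.75 with the log2 values of the authors, -4.41 with an offset of 0.1 and -2.28 with an offset of 1.

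By mean TPM, Serpinb1a and Serpinb6a ran from naive B cells through NP-specific B cells to PCs, and the other 4 genes ran from NP-specific B cells through naive B cells to PCs. The libraries did not overlap at either step for Serpinb1a and Serpinb6b. For Serpinb6a, Serpinb9, Serpina3f and Serpina3g the 2 B cell groups overlapped and only the PC step separated the libraries.

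The genes whose pattern over the 9 libraries was closest to each member were found by the root mean square difference of log2 (TPM + 0.5), centred on the gene mean, as a description. For Serpinb1a they were Ms4a4c (0.245), Ltb (0.366) and Spib (0.685), the last encoding an Ets family factor of B cells. For Serpina3g they were Ceacam1 (0.216), Cd2 (0.241) and Cyth4 (0.249), and for Serpina3f Ddit4 (0.230), Zfp385a (0.258) and Bcl9l (0.276). The nearest to Serpinb9 were Gm12739 (0.282), Rab31 (0.292) and Tle3 (0.304), to Serpinb6b Cdc42ep4 (0.359), Ankrd33b (0.408) and Ahnak (0.411), and to Serpinb6a Gm26596 (0.0823), Pttg1 (0.118) and Gmeb1 (0.122). Among the 6 themselves, Serpinb9 and Serpina3f were closest (0.422) and Serpinb1a and Serpinb6a farthest apart (3.65).

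Of 23 other clade B serpins listed, 2 passed the filter, Serpinb7 and Serpinb9c, of which Serpinb7 was called higher in PCs. Over all genes, 11.4% were called higher in PCs against naive B cells and 9.93% against NP-specific B cells. Both serpins were called lower in NP-specific than in naive B cells, where 10.4% of all genes were called lower. Serpinb7, known as megsin, measured 2.60, 1.76 and 2.00 TPM in naive B cells, 0.128, 0.898 and 0 TPM in NP-specific B cells and 9.93, 15.8 and 15.5 TPM in PCs, so that no groups overlapped. It fell in NP-specific B cells by 1.78 ± 0.46 on the log2 scale (limma adjusted p = 0.011) and rose in PCs, by 2.42 ± 0.31 over naive B cells (adjusted p = 4.81e-05) and by 4.20 ± 0.41 over NP-specific B cells (adjusted p = 9.23e-06), so its direction in PCs was opposite to that of the 6. It lies on chromosome 1 (chr1:107399655-107452689), away from the cluster that holds Serpinb1a. Serpinb9c, from the chromosome 13 cluster, fell in NP-specific B cells by 1.40 ± 0.46 (limma adjusted p = 0.0309) from a mean of 0.906 TPM to 0, 0.53 and 0 estimated counts, under the 3 counts that a count of 0 allows. It passed the filter through naive replicates 1 and 2 and PC replicate 3. The call was lost under 8 of 18 alternative settings, and Serpinb9c was not called in PCs, where its levels were 0.148, 0.360 and 1.12 TPM, highest in replicate 3. The 23 genes together summed to 7.46 to 12.0 TPM with 0 to 2 of them at 0 in naive libraries and to 1.77 to 3.86 TPM with 8 to 12 at 0 in NP-specific libraries, which also list more of all genes at 0. The part of this in the fall of Serpinb9c was not tested. With the log2 values of the authors, the Serpinb7 change from naive B cells to PCs had an adjusted p of 0.133.

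**Figure D3:**
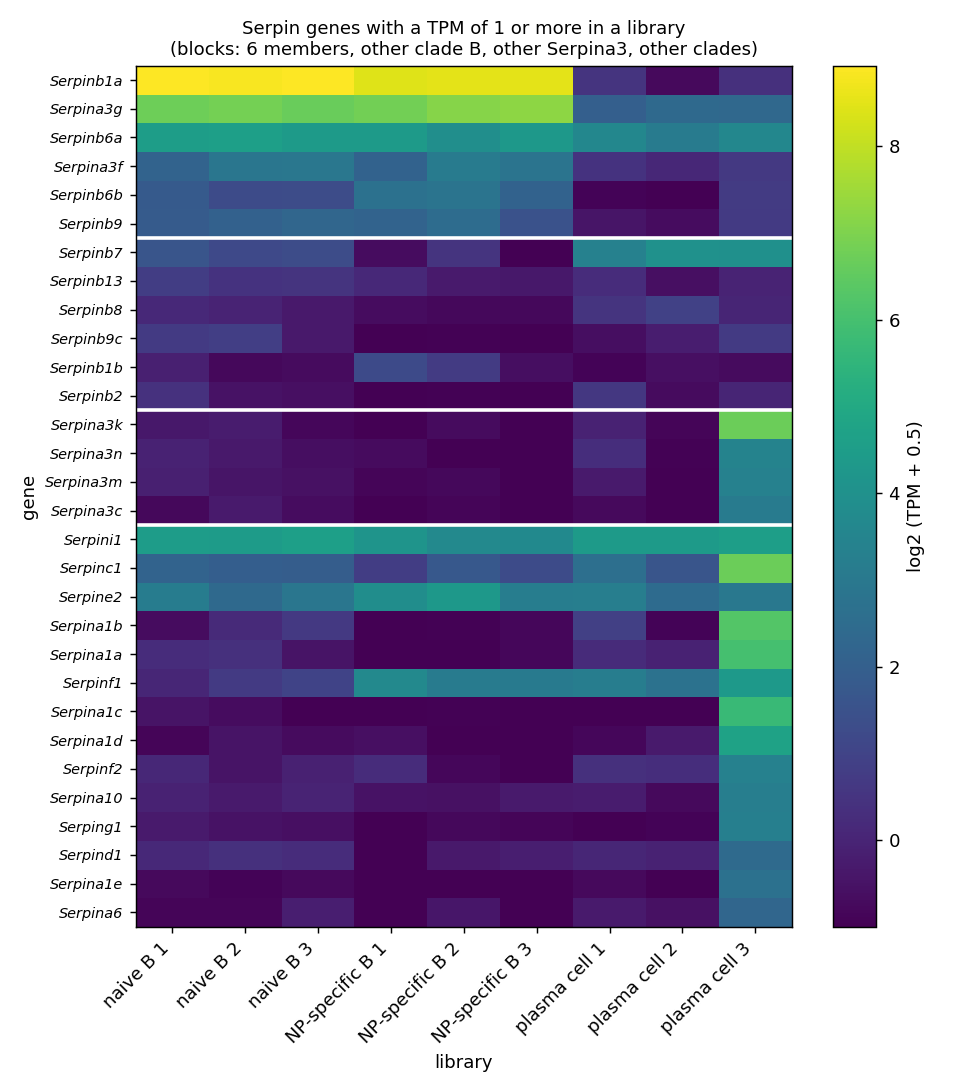
Level, as log2 (TPM + 0.5), of the 30 serpin genes that reached 1 TPM somewhere, by library. White lines separate, from the top, the 6 members, 6 other clade B genes, 4 other Serpina3 genes and 14 genes of other clades. Serpinb1a and Serpina3g are bright in the 6 B cell libraries and dark in the 3 PC libraries, Serpinb7 is brightest in PCs, and the lower blocks brighten in PC replicate 3.

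The secreted relatives of Serpina3f and Serpina3g marked PC replicate 3. The 9 other Serpina3 genes, 0 of which passed the filter, summed to 132.8 TPM there and to 0.132 to 3.35 TPM in the other libraries, with Serpina3k, an abundant liver product, at 103.7 TPM. Serpina3f (1.07 TPM) and Serpina3g (4.61 TPM) in this library stayed next to the values of the other PC libraries. The 21 serpins of other clades summed to 416.4 TPM there against 32.3 to 48.4 TPM elsewhere. Of the 5 that passed the filter, Serpinf1, which encodes the secreted non-inhibitory serpin PEDF, rose in NP-specific B cells (2.70 ± 0.53 on the log2 scale, limma adjusted p = 0.00244) and in PCs against naive B cells (2.85 ± 0.53, adjusted p = 0.000765, or 2.39 without PC replicate 3). Between PCs and NP-specific B cells, 0 of the 5 were called by limma, where 9.93% of all genes were called higher and 22.3% lower. Of the 5, 2 had an unadjusted p under 0.05, as did 58.9% of all genes, with changes under 2-fold, Serpine2 (-0.89) and Serpini1 (0.62).

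Granule and lysosomal protease genes were then examined, known targets of these inhibitors and others. Of 22 listed, 12 passed the filter. The neutrophil proteases Elane, Prtn3 and Ctsg and the granzymes Gzma and Gzmb did not, although they are the named targets of the clade B members: their highest group means were 0.161, 0.468, 0.448, 0.313 and 0.299 TPM. In NP-specific against naive B cells 0 of the 12 were called by limma, where 8.13% of all genes were called higher and 10.4% lower, and 8 had an unadjusted p under 0.05, as did 51.2% of all genes, the largest of these changes being Ctsb at 0.96 ± 0.11 (adjusted p = 8.65e-05), just under 2-fold.

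In PCs the lysosomal proteases split. Against naive B cells, 4 rose and 4 fell, where 11.4% of all genes were called higher and 26.3% lower. The cysteine protease Ctsb, a target of Serpina3g, rose by 2.55 ± 0.10 on the log2 scale (limma adjusted p = 7.71e-09), from 51.5 to 306.5 TPM. The aspartic proteases Ctsd (1.88, adjusted p = 3.64e-07) and Ctse (1.78, adjusted p = 1.79e-05) rose as well, and Ctsz rose by 1.07 (adjusted p = 1.72e-06). Ctsh, an aminopeptidase, fell by 2.34 (limma adjusted p = 6.14e-09), from 827.2 to 163.9 TPM. Ctsa (-1.73, adjusted p = 1.29e-07), Ctsc (-1.48, adjusted p = 1.78e-06), which activates granule serine proteases, and Ctso (-1.12, adjusted p = 3.59e-06) fell too. The 4 rises and 4 falls leave a list median of 0.06.

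Against NP-specific B cells 4 rose and 3 fell, where 9.93% of all genes were called higher and 22.3% lower. Ctsb (1.60), Ctsd (1.95) and Ctse (1.43) rose, and Ctsa (-1.21), Ctsc (-2.20) and Ctsh (-2.75) fell, with limma adjusted p between 2.56e-09 and 7.85e-05. Ctsl was also called (2.22 ± 0.85, adjusted p = 0.0465), but its PC levels were 3.39, 5.12 and 33.97 TPM, highest in the library with liver transcripts. Without that library its change was 1.26 and the call held (adjusted p = 0.0189), but it was lost under 9 of 19 alternative settings, among them leaving out any 1 of the naive or NP-specific libraries. With Ig genes kept in the table, changes from naive B cells were under 2-fold for Ctsd (0.67) and Ctse (0.60) and -0.15 for Ctsz, and those from NP-specific B cells were under 2-fold for Ctsb (0.39), Ctsd (0.74) and Ctse (0.26). Quantile normalization put Ctsz at 0.64 and Ctso at -0.93 from naive B cells and Ctsa at -0.92 from NP-specific B cells, all under 2-fold. With median-of-ratios scaling, Ctsc (-0.99) and Ctso (-0.62) were under 2-fold from naive B cells, as was Ctsa (-0.83) from NP-specific B cells.

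**Figure D4:**
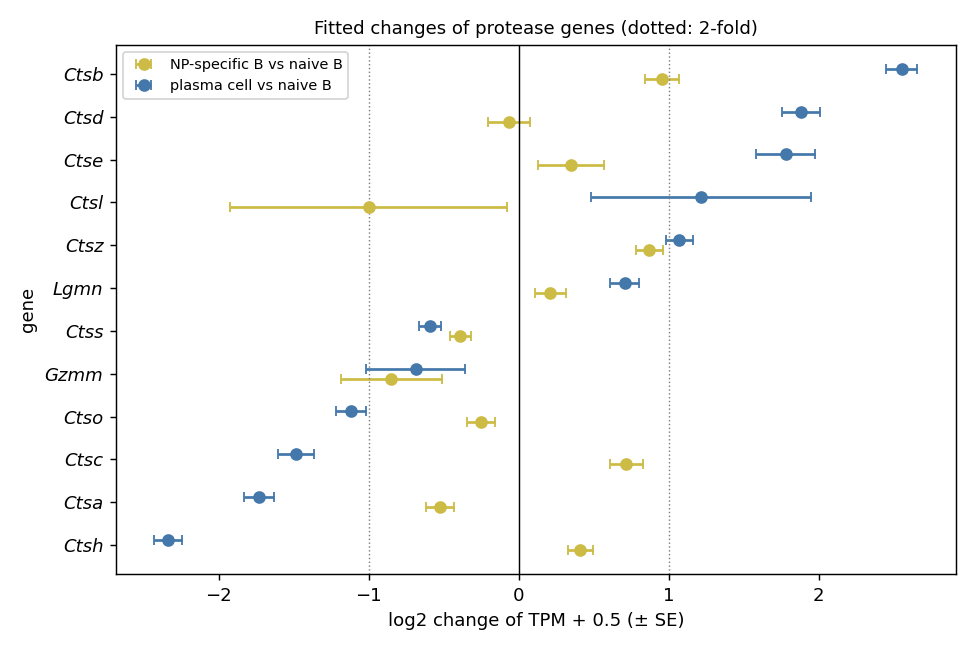
Fitted log2 change of TPM + 0.5 for the 12 protease genes that passed the filter, in NP-specific B cells (yellow) and in PCs (blue), each against naive B cells, with bars for the SE and dotted lines at 2-fold. Blue points run from 2.55 for Ctsb to -2.34 for Ctsh, and yellow points lie within or at the 2-fold lines.

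Serpinb1 is also known to restrain inflammatory caspases, and 5 of 8 genes of that pathway passed the filter. Pycard, the adaptor that joins sensors to caspase-1, rose in NP-specific B cells by 1.49 ± 0.18 on the log2 scale (limma adjusted p = 9.89e-05). It was the only one of the 5 called there, where 8.13% of all genes were called higher and 10.4% lower. In PCs, limma called 2 of the 5 lower against naive B cells, where 26.3% of all genes were called lower, and 3 of the 5 against NP-specific B cells, where 22.3% were. Casp4 (-0.43 and -0.53) and Il18 (-0.53 and -0.19) were not called. Casp1 fell by 1.13 ± 0.13 from naive B cells (limma adjusted p = 3.24e-05) and by 1.21 ± 0.13 from NP-specific B cells (adjusted p = 2.26e-05). Gsdmd, the pore-forming substrate of these caspases, fell by 2.42 ± 0.19 (limma adjusted p = 1.33e-06) and by 1.46 ± 0.20 (adjusted p = 0.00011). Pycard fell by 1.14 ± 0.17 from NP-specific B cells (limma adjusted p = 0.00018), and by 0.96, under 2-fold, without PC replicate 3. With quantile normalization Casp1 (-0.81 and -0.76), Pycard (-0.68) and the second Gsdmd change (-0.99) were under 2-fold, as were Casp1 (-0.63 and -0.83) and Pycard (-0.76) with median-of-ratios scaling.

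Of 16 protease inhibitors listed outside the serpin family, 7 passed the filter. Against naive B cells, limma called 3 of the 7 higher in PCs (Slpi, Spint2 and Cst3) and 1 lower (Wfdc17), where 11.4% of all genes were called higher and 26.3% lower. Slpi, a secreted inhibitor of elastase and cathepsin G, enzymes that Serpinb1a also inhibits, measured 1.03, 0.588 and 0.0660 TPM in naive B cells, 16.7, 25.3 and 9.36 TPM in NP-specific B cells and 1449, 1483 and 1291 TPM in PCs. It rose by 4.05 ± 0.56 on the log2 scale from naive to NP-specific B cells (limma adjusted p = 0.000285), by 10.48 ± 0.53 from naive B cells to PCs (adjusted p = 3.89e-08) and by 6.43 ± 0.24 from NP-specific B cells to PCs (adjusted p = 5.28e-09). In PCs it exceeded the naive Serpinb1a level of 476.7 TPM in the table without Ig genes. Keeping Ig genes lowered PC levels more than naive levels. Serpinb1a was then 0.274 in place of 0.919 TPM in PC replicate 1, and 456.6 in place of 487.4 TPM in naive replicate 1. The order of Slpi and Serpinb1a was not compared with Ig genes kept.

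Spint2, a membrane-bound Kunitz-type inhibitor, fell in NP-specific B cells by 1.16 ± 0.16 on the log2 scale (limma adjusted p = 0.000294) and rose in PCs by 1.97 ± 0.13 over naive B cells (adjusted p = 3.2e-07) and by 3.13 ± 0.15 over NP-specific B cells (adjusted p = 3.24e-08). Cst3, the cysteine protease inhibitor cystatin C, rose by 1.04 ± 0.08 from naive B cells to PCs (limma adjusted p = 8.26e-07), but was 0.63 with quantile normalization, just under 2-fold without naive replicate 3 (0.999) and -0.18 with Ig genes kept in the table, where Spint2 was 0.76. Wfdc17 fell in NP-specific B cells (-3.04 ± 0.83, limma adjusted p = 0.0138) and in PCs (-3.63 ± 0.91, adjusted p = 0.00545). With the log2 values of the authors neither Wfdc17 call held (adjusted p = 0.147 and 0.0612), and the first was also lost with an offset of 0.1 (0.078). Its PC levels were 1.39, 0.509 and 62.4 TPM, and without replicate 3 its change from naive B cells to PCs was -5.47. Wfdc18 fell in NP-specific B cells (-2.09 ± 0.59, limma adjusted p = 0.0157) and rose from there to PCs by 1.94 ± 0.59 (adjusted p = 0.0167). Its PC levels were 1.47, 0.466 and 4.06 TPM, and without replicate 3 that rise was 1.37 (adjusted p = 0.0383). Wfdc18 passed the filter through the naive libraries and PC replicates 1 and 3. In NP-specific libraries it was at 0, 0.113 and 0 TPM, and the part of the larger number of genes at 0 there was not tested. Both Wfdc18 calls were lost without NP-specific replicate 1 (adjusted p = 0.0544 and 0.0581) or 3 (0.0529 and 0.0527), the first also without naive replicate 1 (0.0577).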

How the data were processed

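RNA of twice-sorted spleen cells was made into cDNA from polyadenylated RNA (SMART-Seq v4) and tagmented (Nextera XT). The authors pseudoaligned reads with kallisto (build mm10; the transcript annotation is not given in the sources used here) and deposited TPM per gene symbol and log2 values made with voom, both with and without Ig genes. Here the TPM without Ig genes were fitted with voom and limma 3.58.1 (R 4.3.3): 9 libraries, 3 group means, no block, genes with 1 TPM or more in 3 or more libraries. The smallest fold called was 2, at an adjusted p under 0.05. Library sizes and estimated counts were recovered from the deposited log2 values, since genes at a TPM of 0 share 1 log2 value per library. The fit was also run on simulated data, from which no result is drawn here. The members and the gene lists were chosen with earlier results of these data known. All members and every gene past the test in the serpin, protease, caspase and inhibitor lists are named, with the 3 genes closest to each member. Marker genes past the test are not all named. Shared 31-base words were counted in GENCODE M21 transcripts. Markers were also summed for T cells, with 56.1 to 64.1 TPM in naive, 24.3 to 58.4 in NP-specific and 4.53 to 7.20 in PC libraries. These differences were carried by Lck, with group means of 53.8, 37.1 and 0.564, while the other 5 markers had group means under 3 TPM. Dendritic cell markers summed to 7.48 to 8.01, 21.1 to 23.5 and 7.69 to 9.50, with the NP-specific rise in Flt3 alone. Over all libraries the sums were 0.500 to 5.36 for NK cells, 6.21 to 36.9 for erythroid cells and 1.01 to 53.7 for neutrophils. Alternatives covered the table, the values, the offset, the filter, the scaling, the block and leaving out each library.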

Additional observations from a re-analysis of the deposited data

How the results depend on the processing

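Of the members' log2 changes under alternatives, 100 of NP-specific against naive B cells kept their direction and side of the threshold, 10 lost the Serpinb6b call and 7 reversed. In PCs, 95 changes from naive B cells stayed within 1 SD of the replicates and 22 moved further, and 98 and 19 did so against NP-specific B cells, with the direction kept in each. The count of members called in NP-specific B cells (1) was 0 with the log2 values of the authors, estimated counts, offsets of 0.1 and 1, no filter, a mean TPM of at least 10 (which kept 3 members) and the replicate block, and 0 to 1 when 1 library was left out. The reversed values were near 0: Serpinb9 was 0.078 with median-of-ratios scaling, 0.15 with quantile normalization, 0.07 without naive replicate 3 and 0.25 without NP-specific replicate 3 (range -0.26 to 0.25 when 1 library was left out), and Serpina3f was -0.25, -0.21 and -0.05 without naive replicate 1, NP-specific replicate 2 and NP-specific replicate 3 (range -0.25 to 0.29). With Ig genes kept, Ctsz (-0.15) and Cst3 (-0.18) reversed in PCs against naive B cells, and the median log2 change of all genes moved by -0.93, with 551 genes higher and 7943 lower. Median-of-ratios scaling gave 2349 higher and 1814 lower in that comparison, quantile normalization 2063 and 2047, compared with 1473 and 3397, and against NP-specific B cells 2023 and 1788, 1795 and 1843, and 420 and 7355 with Ig genes kept, compared with 1280 and 2870. In NP-specific against naive B cells they gave 1258 and 1022, and 1157 and 976, compared with 1048 and 1340.

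Members past 2-fold in PCs, 6 against naive and 5 against NP-specific B cells, were 3 and 2 at a mean TPM of at least 10. The first count was 5 with median-of-ratios scaling, with quantile normalization and without PC replicate 2, and the second was 6 with Ig genes kept. Other clade B serpins called in NP-specific against naive B cells (2) were 1 with Ig genes kept, an offset of 1, median-of-ratios scaling and quantile normalization, 0 at a mean TPM of at least 10, where none was tested, and 1 to 2 when 1 library was left out. In PCs against naive B cells (1) they were 0 with the log2 values of the authors and 0 at a mean TPM of at least 10. Against NP-specific B cells (1) they were 2 with the log2 values of the authors, estimated counts and median-of-ratios scaling, 3 without a filter and 0 at a mean TPM of at least 10. Proteases called in NP-specific against naive B cells (0) were 1 with the log2 values of the authors, no filter, median-of-ratios scaling and the 6 libraries compared only, and 0 to 1 when 1 library was left out. Where a cause is not given, the cause was not tested.

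Libraries of different groups share replicate numbers, but the labels do not say that a number marks a mouse, and correlations of the deviations of same-numbered libraries ran from -0.075 to 0.068. With the replicate block, Serpinb6b in NP-specific B cells was 1.06 (limma adjusted p = 0.0523) and 1110 genes were called higher and 1343 lower in that comparison. Depth limits Serpinb6b in PCs, and Serpinb1a in PC replicate 2.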
